A study of Mus musculus with 9 samples.

Results

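Mitosis and chromosome segregation rest on a set of proteins that most cells make only while they divide. The transcripts of 52 such genes, picked by symbol from a list of named mitotic regulators and structural proteins, were followed here in regulatory T cells (Tregs), CD4 T cells that express Foxp3 and hold immune responses in check. All 52 were found among the 23393 named genes of the count tables, and all 52 passed the filter on low counts. The RNA came from mouse spleen Tregs and was sequenced in 9 samples. Of these, 3 came from wild-type Tregs low in ST2 (ST2-low), 3 from wild-type Tregs high in it (ST2-high) and 3 from Tregs of the genotype ST2KO, whose allele is not described. ST2, the receptor for interleukin-33, is encoded by Il1rl1. The series is about ischemic kidney injury, but the labels give no injury, treatment, strain, age or sorting markers for these samples, and nothing in them ties a sample to its own mouse. The spread between replicates may therefore be technical.

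A dividing cell enters mitosis when Cdk1 and its cyclin partners are activated. It then condenses its chromosomes, attaches them to spindle microtubules through kinetochores, waits for the spindle checkpoint to be satisfied, separates the sister chromatids and splits in cytokinesis. Most of these genes are transcribed together late in the cycle: the DREAM complex holds them down in resting cells, and MuvB with B-Myb and then FoxM1 turns them on through promoter sequences named the cell cycle genes homology region (CHR) and through CCAAT boxes bound by NF-Y. Tregs are known to divide more than conventional CD4 T cells, and effector Tregs more than resting ones.

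Libraries held between 11659659 and 43406680 counts. Levels are given as CPM, counts scaled to a common library size with TMM factors. Il1rl1 stood at 2.16, 3.58 and 2.11 CPM in ST2-low, at 516, 421 and 547 in ST2-high, and at 57.7, 61.4 and 83.6 in ST2KO. The ST2KO libraries were thus above ST2-low, and since a count per gene does not show which exons were read, the value does not check the knockout label. ST2KO below means the libraries so labelled. Treg marker genes summed to between 4772 and 4898 CPM in ST2-low, 5460 and 5755 in ST2-high and 3778 and 3895 in ST2KO. Much of that sum was Ctla4, with means of 1995, 2122 and 786 CPM in the same order. By the edgeR test given below, Ctla4 and Tnfrsf18 were lower in ST2KO than in ST2-low and Il2ra and Ikzf2 higher. Foxp3, Cd3e and Cd4 did not pass there, so the markers did not move in 1 direction. The ST2-high library of replicate 3 stood apart from the other libraries of its group: the chi-square per gene against them was 16.5 and 19.9, while the other pairs of replicates gave 4.46 to 8.22. These values were taken with the gene Rn45s kept, which held 16.7% of counts in replicate 3 and 13% and 12.1% in replicates 1 and 2. The part of Rn45s in them was not measured. Replicate 3 held the lowest ST2-high value for 32 of the 52 genes, and replicate 2 held the highest for 35. Results that rest on replicate 3 are given with and without it.

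In ST2-high Tregs almost the whole mitotic set was higher than in ST2-low Tregs. By the quasi-likelihood test of edgeR, adjusted by Benjamini-Hochberg over 12219 genes, 50 of the 52 genes rose, 1 fell (Smc4) and 1 did not pass (Ndc80). Over all genes tested, 15.3% rose and 10.8% fell. At 2-fold or more, 41 of the 52 rose and 0 fell, against 3.16% and 0.368% of all genes. The median log2 fold change was 1.21 for the 52 genes and -0.002 over all genes tested. In 50 of the 52 every ST2-high library lay above every ST2-low library, against 20.5% of all genes. Without ST2-high replicate 3, 49 rose, with a median of 1.24. The 52 genes were chosen with earlier results of these data known, so these counts are a description. In bulk RNA, more cells that make these transcripts and more transcript per such cell cannot be told apart.

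The ST2KO libraries lay below ST2-high for nearly every gene and on both sides of ST2-low. Against ST2-high, 51 of the 52 genes fell and 1 rose (Smc4) by the same edgeR test, where 32.6% of all genes fell and 31.9% rose (64.5% in either direction). At 2-fold or more 33 fell and 0 rose, against 8.86% and 6.85% of all genes. The median was -1.12, and 0.020 over all genes. Without ST2-high replicate 3, 51 fell, with a median of -1.18. Against ST2-low, 12 rose, 7 fell and 33 did not pass, while 33% of all genes rose and 29.3% fell. The 19 of 52 called is a smaller share than the 62.3% of all genes called in either direction. The median was 0.10, beside 0.051 over all genes. The comparisons share groups, so their values are given side by side and are not independent of each other.

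**Figure D1:**
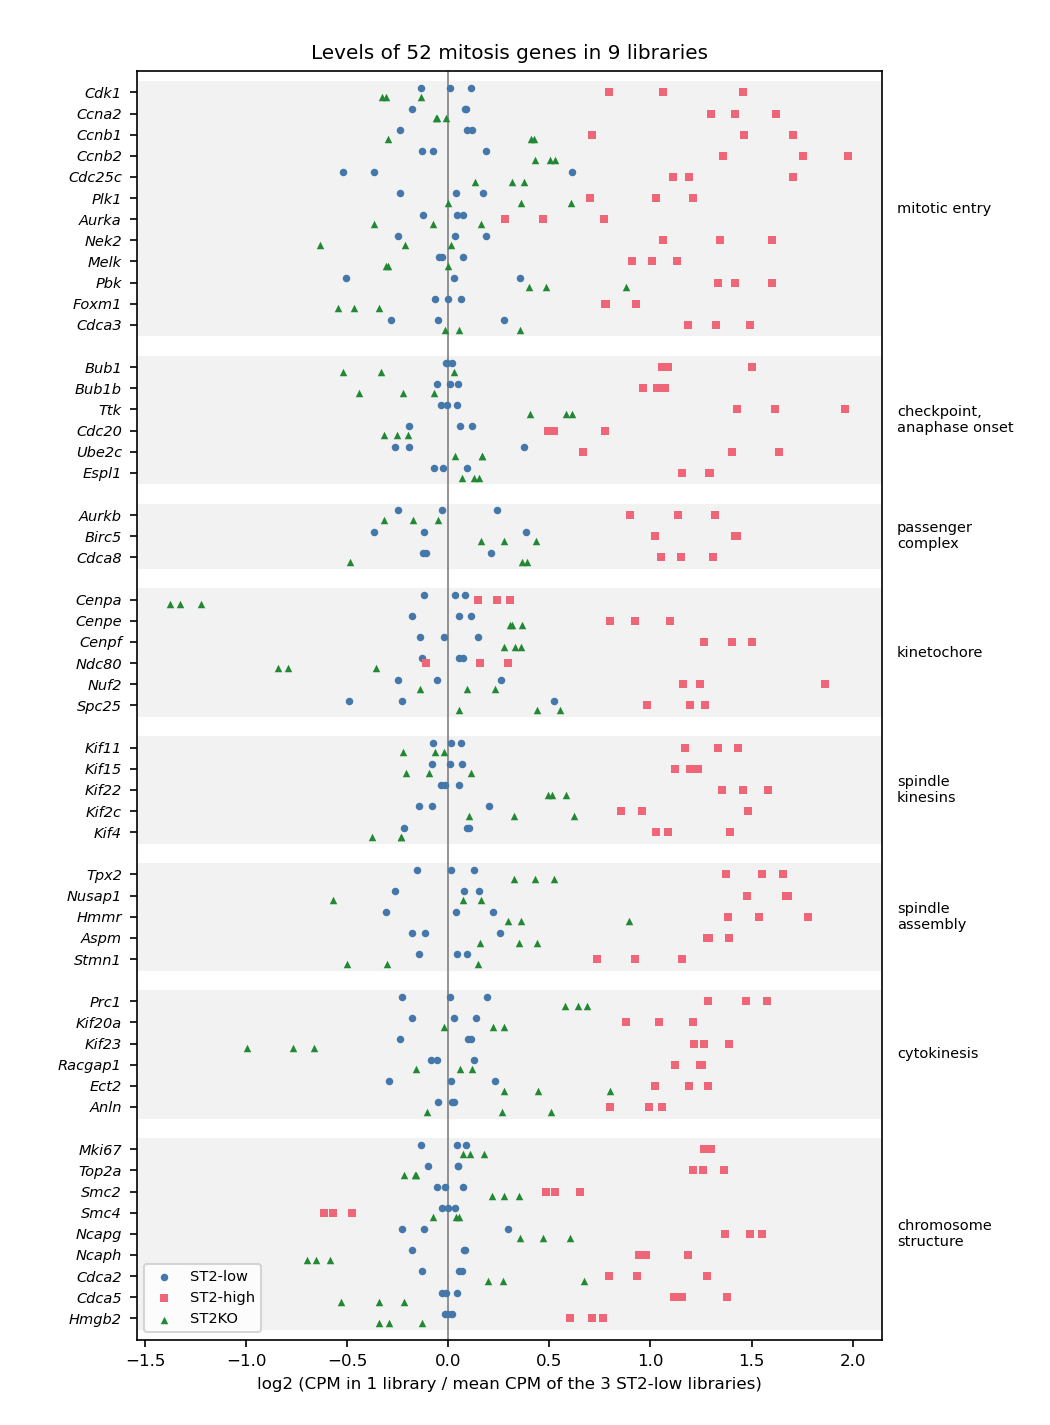
Level of each of the 52 genes in each library, as log2 of its CPM over the mean CPM of the 3 ST2-low libraries, with 1 point per library and genes grouped by role. Squares for ST2-high lie to the right of the circles for ST2-low in 50 genes, and Smc4 is the gene whose squares lie to the left. The triangles for ST2KO lie wholly to the right of the circles in 13 genes and wholly to the left in 11. Over all genes tested these shares were 36% and 31.2%. Cenpa, Kif23, Ndc80 and Ncaph are among the genes with triangles to the left.

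Because these genes moved together, their promoters were read for the letters of the CHR and of the CCAAT box. RefSeq promoters (GRCm38.p6, from 250 bases before to 50 bases after a transcription start) were at hand for 42 of the 52 genes. The sequences below, each from 140 bases before to 10 bases after the start and written 5′ to 3′ on the gene's strand, show genes that rose in ST2-high (Cdk1, Ccnb2, Mki67, Top2a) beside genes that differed between ST2KO and ST2-low (Prc1 and Ccnb2 higher, Top2a, Cenpa and Kif23 lower). Capitals mark CHR letters (TTTGAA, its reverse TTCAAA, or TTTAAA) and CCAAT letters (CCAAT or its reverse ATTGG). They lie at chr10:69352903-69353052 (minus strand, Cdk1), chr9:70421545-70421694 (minus, Ccnb2), chr7:135716370-135716519 (minus, Mki67), chr11:99024180-99024329 (minus, Top2a), chr7:80294311-80294460 (plus, Prc1), chr5:30666746-30666895 (plus, Cenpa) and chr9:61946790-61946939 (minus, Kif23).
Cdk1: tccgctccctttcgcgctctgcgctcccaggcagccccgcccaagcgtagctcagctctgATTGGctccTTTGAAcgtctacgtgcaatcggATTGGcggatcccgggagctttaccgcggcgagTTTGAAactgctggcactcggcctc
Ccnb2: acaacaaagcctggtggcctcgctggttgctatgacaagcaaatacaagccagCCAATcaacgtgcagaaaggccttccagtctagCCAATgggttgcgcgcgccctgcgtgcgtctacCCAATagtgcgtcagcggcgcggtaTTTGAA
Mki67: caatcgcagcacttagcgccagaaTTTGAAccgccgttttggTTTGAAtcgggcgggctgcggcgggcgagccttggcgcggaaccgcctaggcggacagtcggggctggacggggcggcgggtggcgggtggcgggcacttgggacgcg
Top2a: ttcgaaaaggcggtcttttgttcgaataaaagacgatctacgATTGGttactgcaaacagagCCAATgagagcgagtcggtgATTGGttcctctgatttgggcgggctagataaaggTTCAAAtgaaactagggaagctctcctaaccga
Prc1: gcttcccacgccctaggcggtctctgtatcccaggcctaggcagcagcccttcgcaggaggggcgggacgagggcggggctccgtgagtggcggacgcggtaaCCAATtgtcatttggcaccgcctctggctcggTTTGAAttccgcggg
Cenpa: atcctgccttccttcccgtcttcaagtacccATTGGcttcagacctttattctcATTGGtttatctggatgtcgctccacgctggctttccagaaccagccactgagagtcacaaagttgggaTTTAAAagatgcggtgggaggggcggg
Kif23: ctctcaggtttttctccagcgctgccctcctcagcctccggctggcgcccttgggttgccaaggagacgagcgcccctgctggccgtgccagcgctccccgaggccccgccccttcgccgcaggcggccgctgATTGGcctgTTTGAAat

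CHR letters, searched as TTTGAA or TTTAAA on both strands, occurred in 36 of the 42 promoters (85.7%), against 22.3% of the 9073 tested genes with a promoter of the same length. All the sequences printed above carry them. Bub1, Melk, Ncaph, Nek2, Nuf2 and Nusap1 had none, and all of these rose in ST2-high. Among them Melk, Ncaph, Nuf2 and Nusap1 held no CCAAT or E2F letters either. TTTGAA alone was in 78.6%, against 14.3%. CCAAT was in 76.2%, against 43.2%, and 71.4% held both CHR and CCAAT letters, against 9.09%. In 33 of the 42 a CHR began within 50 bases of the start (78.6%, against 6.12%). Pairs of CCAAT boxes whose first letters were 31 to 33 bases apart, a spacing chosen after it was seen, were in 9 of the 42 (Aurka, Ccnb1, Ccnb2, Cdca3, Cdk1, Hmmr, Nek2, Spc25 and Ube2c), against 2.09%. The E2F letters TTCCCGC were in 2.38% of the 42, in 9.95% of tested genes and in 50% of the 32 promoters of a list of S phase genes. Of those 32, 28.1% held CHR letters and 62.5% held CCAAT. In the 47 promoters of a list of other mitosis genes, TTCCCGC was in 21.3%, CHR letters in 61.7% (within 50 bases of the start in 46.8%) and CHR with CCAAT letters in 44.7%. CCAAT was in 66% of these 47. The CCAAT pairs 31 to 33 bases apart were in 2.13% of these 47 and in 6.25% of the S phase promoters. That spacing was chosen after it was seen, so its share in the 42 cannot count as support for a common feature. Genes of each ST2KO call carried CHR letters: they were in 10 of 10 promoters of genes higher in ST2KO than in ST2-low, in 5 of 6 of those lower and in 21 of 26 of those that did not pass. Cenpa and Kif23, the members with the largest falls there, both carry them beside the start, as Prc1 with the largest rise does. A match of letters is a description and does not show that a factor binds.

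**Figure D2:**
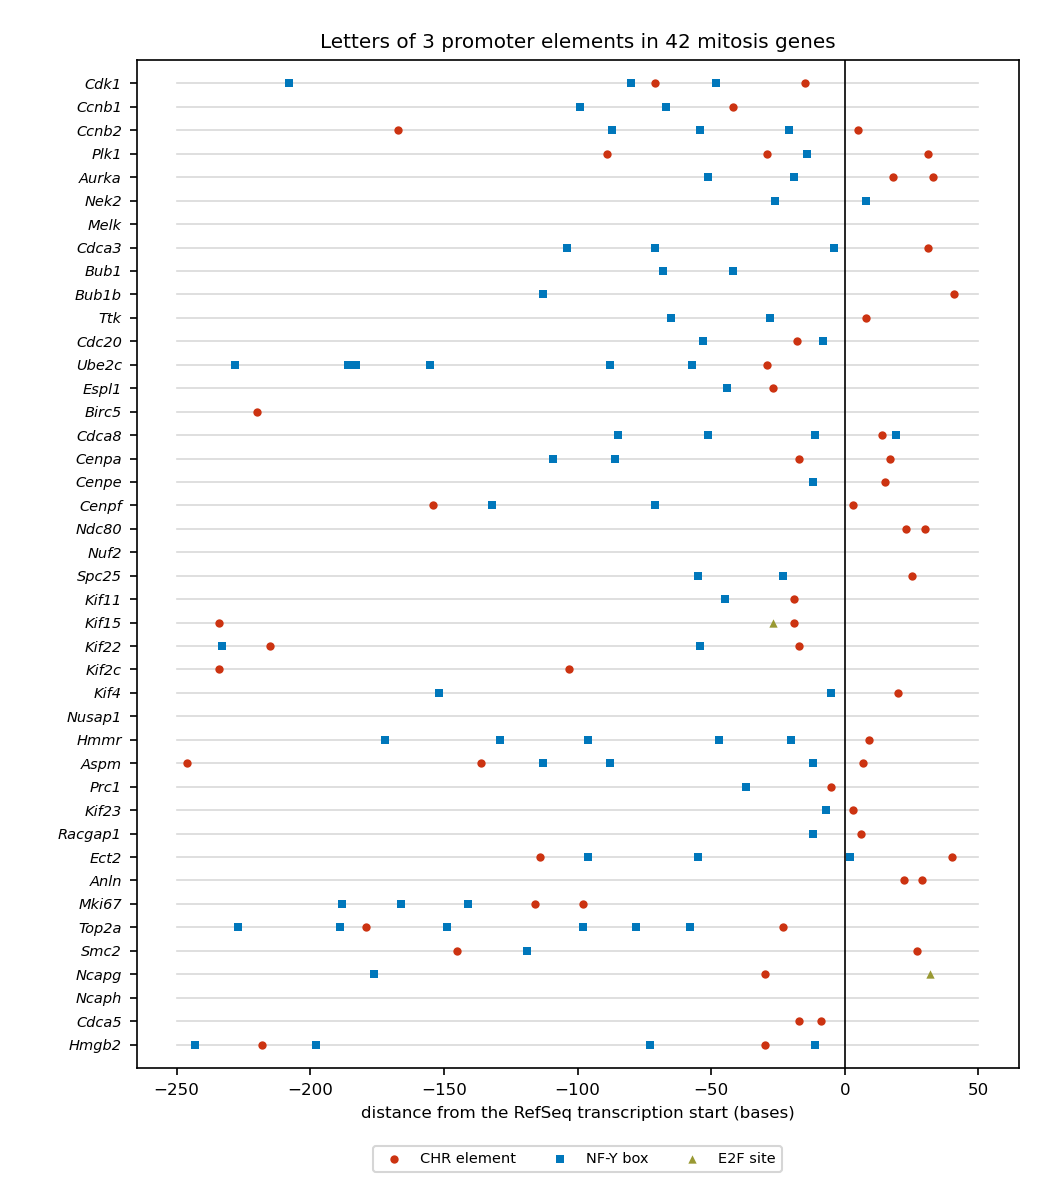
Position of CHR, CCAAT (NF-Y box) and E2F letters in the 42 promoters, with distance from the RefSeq transcription start in bases on the horizontal axis and 1 gene per line. CHR letters begin within 50 bases of the start in 33 of the 42 genes, most CCAAT boxes lie before the start, and E2F letters occur in Kif15 and Ncapg.

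The kinases and cyclins of mitotic entry were all higher in ST2-high. All 12 rose, 10 of them by 2-fold or more, where 15.3% of all genes rose and 3.16% did so by 2-fold or more. These shares, and the 62.3% of all genes called between ST2KO and ST2-low, stand beside the counts of every role below. The summed level of the 12 genes went from 65.4 to 69.8 CPM in ST2-low to 135 to 171 in ST2-high. Ccna2, the cyclin of late S phase and mitotic entry, was at 13.8, 13.8 and 11.5 CPM in ST2-low, at 34.8, 40.2 and 32.1 in ST2-high and at 12.6, 12.5 and 12.9 in ST2KO. The ST2-high values stood clear of the others, and ST2-low and ST2KO overlapped. Foxm1, the transcription factor of late cell cycle genes, was at 14.3, 15.6 and 14.9 CPM in ST2-low, 25.6, 28.4 and 25.6 in ST2-high and 11.8, 10.8 and 10.2 in ST2KO. Its 3 groups did not overlap, with ST2KO lowest (edgeR log2 fold change against ST2-low -0.43 ± 0.104 SE, adjusted p = 0.000691).

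Ccnb2, a B-type cyclin that activates Cdk1, had the largest rise of the whole set. It stood at 4.11, 5.13 and 4.27 CPM in ST2-low, 15.2, 17.7 and 11.5 in ST2-high and 6.49, 6.37 and 6.05 in ST2KO. The ST2-high level was 3.31-fold above ST2-low (edgeR log2 1.73 ± 0.157 SE, adjusted p = 4.08e-10), and ST2KO was 1.41-fold above ST2-low (adjusted p = 0.0112). The groups did not overlap, and ST2KO lay between the wild-type groups. Its partner Cdk1 rose 2.19-fold and the other B-type cyclin Ccnb1 2.58-fold in ST2-high, and neither passed the test between ST2KO and ST2-low. Plk1, the polo kinase of centrosomes and kinetochores, rose 2.02-fold, Nek2, a kinase of centrosome separation, 2.55-fold, Cdca3, a factor in the breakdown of the Cdk1 inhibitor Wee1, 2.52-fold, and the kinase genes Melk and Pbk 2.04-fold and 2.75-fold. Cdc25c, the phosphatase that activates Cdk1, rose 2.53-fold on few reads, from 11 counts in the library with the fewest. Aurka, the kinase of spindle poles, had the weakest rise of this group. It was at 4.43, 5.07 and 4.97 CPM in ST2-low and 5.86, 6.66 and 8.24 in ST2-high, 1.42-fold (edgeR adjusted p = 0.038). The groups did not overlap, but the call was lost in 8 alternatives besides the minimum fold, which included each single wild-type library left out except ST2-high replicate 1 (adjusted p between 0.060 and 0.169).

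Spindle checkpoint and anaphase genes all rose in ST2-high. For these 6 the sum went from between 35.0 and 39.1 CPM to between 76.6 and 82.3 CPM, with ST2KO at 34.5 to 35.6 CPM. Bub1b, the checkpoint kinase-like protein BubR1, was at 11.8, 12.7 and 12.4 CPM in ST2-low, 24.0, 25.9 and 25.2 in ST2-high and 10.6, 9.06 and 11.7 in ST2KO. Espl1, the separase that cuts cohesin at anaphase, was at 7.45, 7.66 and 8.34 CPM in ST2-low, 19.1, 17.4 and 19.2 in ST2-high and 8.20, 8.53 and 8.67 in ST2KO. In both genes the ST2-high libraries stood above all others by more than the spread within any group. Ttk, the checkpoint kinase Mps1, had the second largest rise of the set, from 1.57, 1.60 and 1.66 CPM to 4.32, 4.93 and 6.26 CPM, 3.17-fold. In ST2KO it was at 2.41, 2.45 and 2.13 CPM, above every ST2-low library, and did not pass the test there (edgeR adjusted p = 0.0539). The checkpoint kinase Bub1 rose 2.34-fold and Ube2c, the ubiquitin-conjugating enzyme of the anaphase-promoting complex, 2.45-fold. Cdc20, which activates that complex, rose less, by 1.53-fold. None of the 6 genes passed between ST2KO and ST2-low, where 62.3% of all genes were called in either direction.

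The chromosomal passenger complex corrects faulty attachments. Its kinase Aurkb and its subunits Birc5 (survivin) and Cdca8 (borealin) all rose. Cdca8 was at 6.54, 5.24 and 5.17 CPM in ST2-low, 12.6, 14.0 and 11.7 in ST2-high and 7.40, 4.03 and 7.28 in ST2KO. Aurkb was at 4.97, 6.01 and 4.27 CPM in ST2-low, 12.7, 11.2 and 9.49 in ST2-high and 4.08, 4.50 and 4.91 in ST2KO. The folds over ST2-low in ST2-high were 2.26 for Cdca8, 2.21 for Aurkb and 2.49 for Birc5. Between ST2KO and ST2-low none of the 3 passed, where 62.3% of all genes were called, and the groups overlapped in each.

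Centromere and kinetochore genes divided. Of 6 genes, 5 rose in ST2-high, and against ST2-low the ST2KO libraries were higher for Cenpe and Cenpf and lower for Cenpa and Ndc80. Cenpa, the histone H3 variant that marks the centromere, was at 66.3, 73.9 and 76.5 CPM in ST2-low, 80.1, 89.3 and 85.3 in ST2-high and 27.8, 30.9 and 28.8 in ST2KO. Its rise in ST2-high was the smallest of those that passed, 1.17-fold (edgeR adjusted p = 0.0084), and was lost without ST2-low replicate 1 (adjusted p = 0.0848). Its fall in ST2KO was the largest of the set against ST2-low, 2.49-fold (edgeR log2 -1.31 ± 0.0703 SE, adjusted p = 2.96e-16). It was the only member to pass a test against a minimum fold of 1.5 there, which 1086 of the 12219 genes passed as lower and 1025 as higher. All 3 ST2KO libraries lay far under all 6 wild-type ones.

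Ndc80, the namesake subunit of the complex that grips microtubules, was at 13.5, 15.6 and 15.3 CPM in ST2-low, 16.5, 18.1 and 13.7 in ST2-high and 8.53, 8.24 and 11.5 in ST2KO. The wild-type groups overlapped (edgeR log2 0.13 ± 0.124 SE, adjusted p = 0.503), and ST2KO lay under both, 1.61-fold below ST2-low. Its partners in the complex did otherwise: Nuf2 rose 2.73-fold and Spc25 2.19-fold in ST2-high, and neither passed between ST2KO and ST2-low, where the log2 differences were 0.08 ± 0.215 SE and 0.38 ± 0.270 SE. Cenpf, a large kinetochore protein, was at 9.94, 12.1 and 10.8 CPM in ST2-low, 31.1, 26.3 and 29.0 in ST2-high and 13.8, 14.1 and 13.3 in ST2KO. The groups did not overlap, and the same order held for Cenpe, the kinetochore motor, at 10.6, 12.5 and 13.01 CPM in ST2-low, 20.99, 25.8 and 22.9 in ST2-high and 15.02, 15.5 and 14.9 in ST2KO. Both lost their ST2KO call without ST2-low replicate 1 (edgeR adjusted p = 0.0833 for Cenpe and 0.0665 for Cenpf).

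All 5 spindle kinesins rose by 2-fold or more in ST2-high, against 3.16% of all genes. Kif11, the motor that pushes spindle poles apart, was at 27.4, 24.9 and 26.4 CPM in ST2-low, 66.1, 70.8 and 59.0 in ST2-high and 25.9, 25.1 and 22.4 in ST2KO. Kif15, which helps keep the spindle bipolar, was at 11.2, 10.5 and 11.7 CPM in ST2-low, 25.6, 26.3 and 24.3 in ST2-high and 10.4, 12.04 and 9.65 in ST2KO. In both, ST2-low and ST2KO overlapped and ST2-high stood apart. Of the chromokinesins, which bind chromosome arms, Kif22 rose 2.76-fold and Kif4 2.25-fold, and the microtubule depolymerase gene Kif2c rose 2.17-fold. Kif22 was also 1.44-fold higher in ST2KO than in ST2-low, at 6.78 ± 0.226 against 4.70 ± 0.155 CPM (n = 3 each).

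Spindle assembly genes had the highest median of the 8 roles in ST2-high, a log2 of 1.52, and all 5 rose. Aspm, a spindle pole protein, was at 11.99, 16.2 and 12.6 CPM in ST2-low, 35.6, 33.2 and 33.01 in ST2-high and 17.3, 18.4 and 15.1 in ST2KO. Stmn1, which destabilises microtubules, was at 9.89, 11.3 and 11.7 CPM in ST2-low, 20.7, 24.3 and 18.2 in ST2-high and 8.85, 7.71 and 12.1 in ST2KO. ST2-low and ST2KO overlapped for both genes, and Aspm still passed as higher in ST2KO (edgeR adjusted p = 0.0093), a call lost without ST2-low replicate 1 or 3. Tpx2, the activator of Aurka on the spindle, rose 2.87-fold in ST2-high and was 1.34-fold higher in ST2KO than in ST2-low, with groups that did not overlap. Hmmr, which works with Tpx2, was at 3.84, 4.36 and 3.01 CPM in ST2-low, 10.8, 12.8 and 9.75 in ST2-high and 6.94, 4.79 and 4.58 in ST2KO. It rose 2.99-fold in ST2-high and 1.52-fold in ST2KO. Replicate 1 was the highest ST2KO library, and without it the ST2KO call was lost (edgeR adjusted p = 0.183), as it was without ST2-low replicate 3 (0.0536). Nusap1, which bundles spindle microtubules, rose 3.07-fold in ST2-high and differed little between ST2KO and ST2-low (log2 -0.02 ± 0.154 SE).

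The 6 genes of the central spindle and cytokinesis all rose in ST2-high and split in ST2KO. Racgap1, a subunit of centralspindlin, was at 21.5, 21.1 and 24.4 CPM in ST2-low, 53.2, 52.9 and 48.6 in ST2-high and 24.2, 23.3 and 19.96 in ST2KO. Kif23, the motor subunit of the same complex, was at 15.7, 20.02 and 19.8 CPM in ST2-low, 43.1, 48.5 and 44.5 in ST2-high and 11.7, 9.29 and 10.9 in ST2KO. Racgap1 overlapped between ST2-low and ST2KO, whereas every ST2KO library was under every ST2-low library for Kif23. The log2 difference of Kif23 was -0.78 ± 0.108 SE against ST2-low (edgeR adjusted p = 2.71e-07) and -2.07 ± 0.102 SE against ST2-high (adjusted p = 4.29e-17), the largest of the set in that comparison. Whether the 2 genes of the complex differ from each other in their change was not tested.

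Prc1, which bundles the microtubules of the midzone, went the other way in ST2KO. It stood at 7.62, 8.66 and 6.48 CPM in ST2-low, 21.1, 22.6 and 18.5 in ST2-high and 11.9, 11.3 and 12.2 in ST2KO. ST2KO lay between the wild-type groups without overlap, 1.56-fold above ST2-low (edgeR log2 0.64 ± 0.126 SE, adjusted p = 6.44e-05), the largest rise of the set there. Ect2, the exchange factor that activates RhoA at the cleavage site, was likewise 1.44-fold higher in ST2KO, and its call was lost without ST2-low replicate 2 (edgeR adjusted p = 0.0554). Kif20a, a midzone motor, and Anln, a scaffold of the contractile ring, rose 2.07-fold and 1.95-fold in ST2-high and did not pass between ST2KO and ST2-low.

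Chromosome structure genes held the most abundant transcripts of the set and its exception. Mki67, the chromosome coat protein used as a marker of proliferation, was at 115, 130 and 134 CPM in ST2-low, 310, 302 and 309 in ST2-high and 132, 136 and 142 in ST2KO. Top2a, the topoisomerase that untangles sister chromatids, was at 79.4, 79.2 and 71.4 CPM in ST2-low, 184, 197 and 177 in ST2-high and 68.3, 68.7 and 65.9 in ST2KO. ST2-high stood at 2.44-fold of ST2-low for Mki67 and 2.43-fold for Top2a. Against ST2-low, ST2KO overlapped for Mki67 (edgeR adjusted p = 0.069) and was 1.13-fold lower for Top2a (adjusted p = 0.00947), a call lost under upper-quartile scaling (adjusted p = 0.108). Under that scaling Mki67 passed as higher in ST2KO (edgeR log2 0.19, adjusted p = 0.00454), as it did without ST2-low replicate 3 (adjusted p = 0.0327). The chromatin protein gene Hmgb2 rose 1.62-fold in ST2-high and was 1.20-fold lower in ST2KO than in ST2-low. Cdca5 (sororin), which protects cohesin, rose 2.32-fold, and Cdca2 (Repo-Man), which brings a phosphatase to anaphase chromosomes, 2.02-fold. Cdca2 was 1.36-fold higher in ST2KO than in ST2-low (edgeR adjusted p = 0.0355), and that call was lost in 8 alternatives besides the minimum fold (adjusted p between 0.0517 and 0.350).

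Smc4 was the only member that fell in ST2-high and the only one that rose from ST2-high to ST2KO. It encodes, with Smc2, the core of condensin, the ring complex that folds mitotic chromosomes. Smc4 was at 1071, 1045 and 1023 CPM in ST2-low, 705, 752 and 682 in ST2-high and 1075, 1084 and 994 in ST2KO. All ST2-high libraries lay under all others, 1.47-fold below ST2-low (edgeR log2 -0.55 ± 0.0526 SE, adjusted p = 1.08e-09), and ST2-low and ST2KO overlapped. Its partner Smc2 moved in the opposite direction between the wild-type groups, at 39.2, 38.2 and 41.7 CPM in ST2-low, 57.2, 62.4 and 55.4 in ST2-high and 46.1, 48.1 and 50.6 in ST2KO. The 3 groups of Smc2 did not overlap, and its fall from ST2-high to ST2KO was the smallest of the set, a log2 of -0.28 ± 0.0673 SE.

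The other subunits of condensin were set beside them per length of their annotated exons. Smc4 had 242 CPM per kb in ST2-low, 165 in ST2-high and 243 in ST2KO, while Smc2 had 7.35, 10.8 and 8.93 CPM per kb. Ncaph, the subunit that closes the condensin I ring, had 4.20, 8.62 and 2.68 CPM per kb, and Ncapg, which binds DNA with it, 1.93, 5.36 and 2.69 CPM per kb. Ncapd2, the remaining subunit of condensin I and not one of the 52, had 11.9, 20.4 and 11.3 CPM per kb. Of the condensin II subunits, also not among the 52, Ncaph2 had 34.8, 36.7 and 25.8 CPM per kb and Ncapd3 21.45, 20.8 and 18.93. Ncapg2 had 4.43, 8.535 and 3.32 CPM per kb. In ST2-high, Ncapg2 rose 1.92-fold, while Ncaph2 and Ncapd3 did not pass (edgeR adjusted p = 0.315 and 0.594). Smc4 was thus far above every other condensin subunit listed here per length in each group. Ncaph and Ncapg both rose in ST2-high, by 2.05-fold and 2.79-fold. In ST2KO they parted: Ncaph, at 11.99, 9.98 and 11.95 CPM in ST2-low, was at 21.7, 25.7 and 22.3 in ST2-high and fell to 7.53, 7.19 and 6.95 in ST2KO (edgeR log2 against ST2-low -0.64 ± 0.122 SE, adjusted p = 4.6e-05), and Ncapg was 1.38-fold higher than in ST2-low. Both changes were without overlap of the groups, and their difference was not tested.

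Smc4 made up 58.7% of the summed CPM of the 52 genes in ST2-low, so the sum hides what the others did. With it, the sum was 1781 ± 13.6 CPM in ST2-low, 2262 ± 112 in ST2-high and 1744 ± 41.1 in ST2KO (mean ± SD, n = 3 each). Leaving it out, a choice made after its values were seen, the other 51 genes summed to 709, 751 and 745 CPM in ST2-low, 1539, 1631 and 1478 in ST2-high and 692, 685 and 702 in ST2KO. Every ST2-high sum stood far above the sums of the other groups, and every ST2KO sum lay just under the ST2-low sums. The latter does not describe the set, since Cenpa alone went from a mean of 72.2 CPM in ST2-low to 29.2 in ST2KO. Of the 51 genes, 29 had a log2 fold change above 0 between ST2KO and ST2-low, and the median was 0.106. The genes varied alike between replicates in each group, with a median coefficient of variation of 10.2% in ST2-low, 10% in ST2-high and 9.61% in ST2KO.

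**Figure D3:**
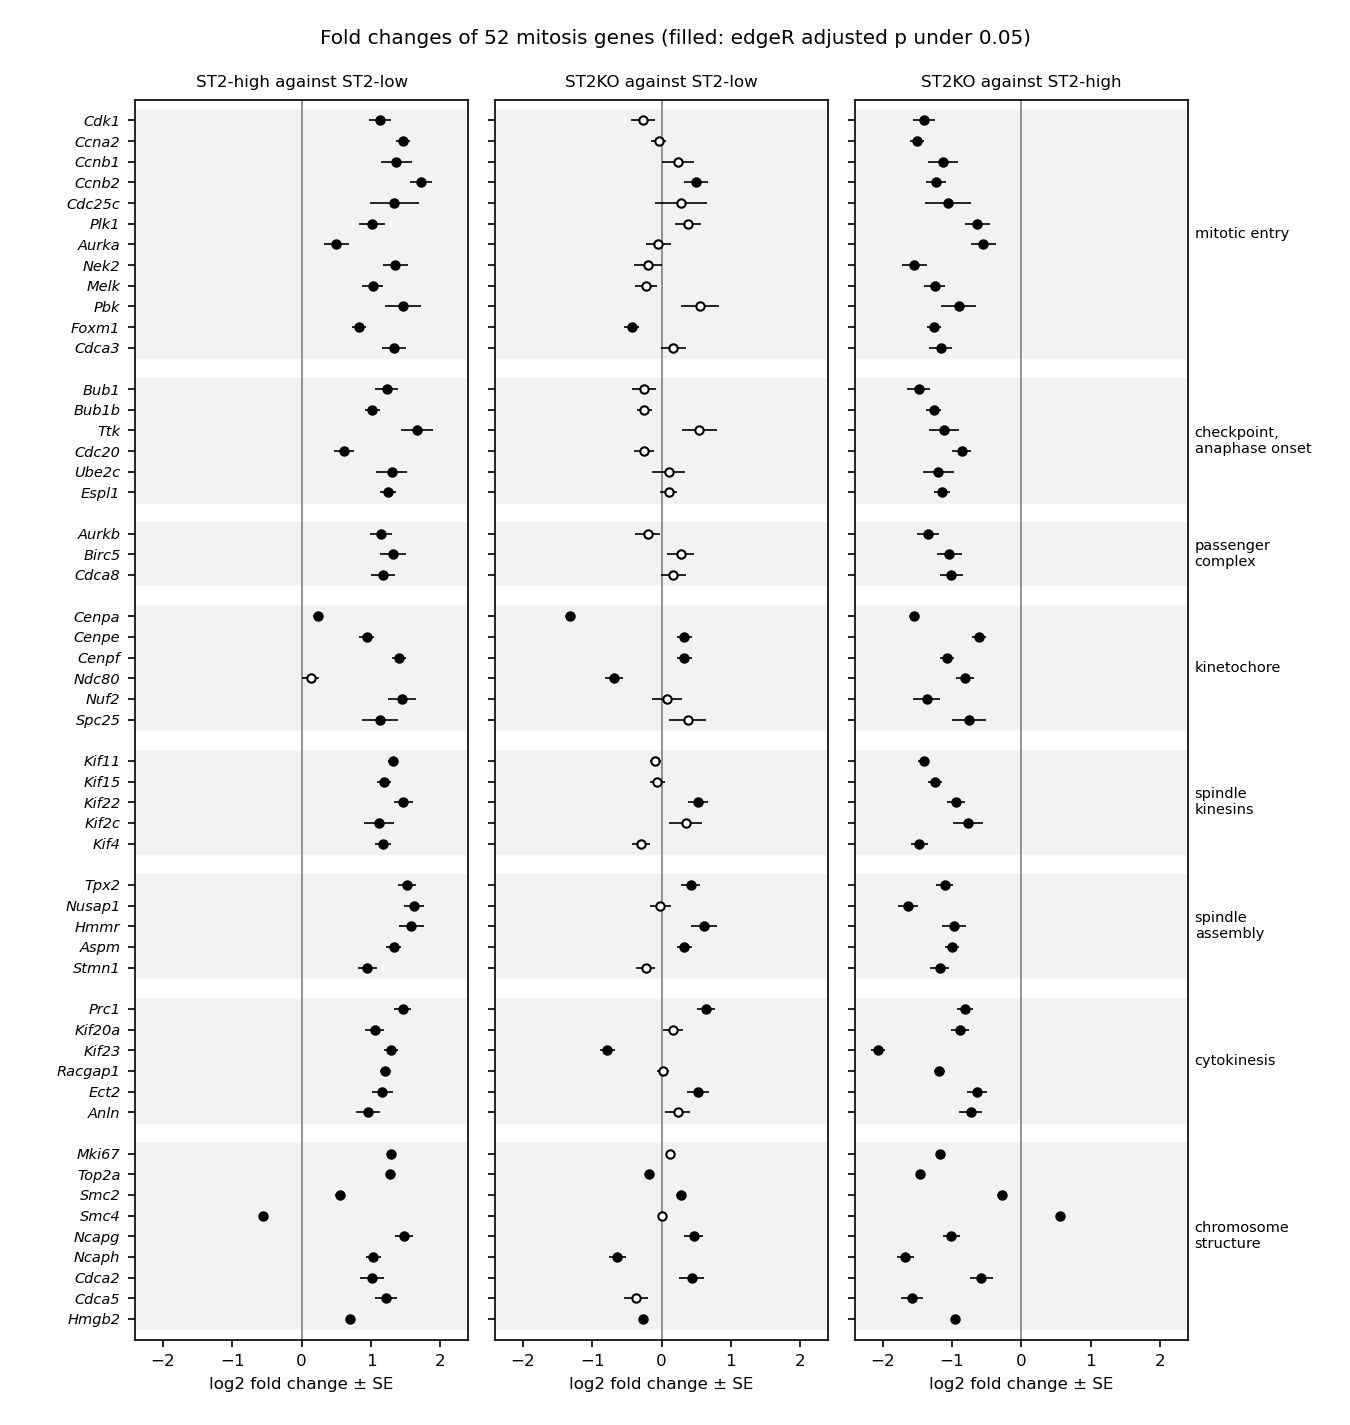
Log2 fold change of the 52 genes in the 3 comparisons, with bars for the standard error of the edgeR fit and filled points for an adjusted p under 0.05, genes grouped by role. In ST2-high against ST2-low 50 points lie filled to the right of 0, in ST2KO against ST2-high 51 lie filled to the left, and in ST2KO against ST2-low 12 lie filled to the right and 7 to the left.

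Between ST2KO and ST2-low the 12 higher genes were Ccnb2, Cenpe, Cenpf, Kif22, Tpx2, Hmmr, Aspm, Prc1, Ect2, Smc2, Ncapg and Cdca2, with log2 fold changes up to 0.64. The 7 lower ones were Cenpa, Kif23, Ndc80, Ncaph, Foxm1, Hmgb2 and Top2a, from -1.31 to -0.18. Cenpa was the single gene past 2-fold, where 6.64% of all genes were lower and 6.86% higher by 2-fold or more. Groups did not overlap for 13 genes above and 11 below, against 36% and 31.2% of all genes. With DESeq2's size factors the split was 11 higher and 10 lower, with upper-quartile factors it was 15 and 6, and without ST2-low replicate 1 it was 8 and 8. The genes that did not pass were Cdk1, Ccna2, Ccnb1, Cdc25c, Plk1, Aurka, Nek2, Melk, Pbk and Cdca3 among the entry genes, all 6 checkpoint genes, all 3 passenger genes, Nuf2 and Spc25 of the kinetochore, Kif11, Kif15, Kif2c and Kif4 of the kinesins, Nusap1 and Stmn1, Kif20a, Racgap1 and Anln, and Mki67, Smc4 and Cdca5. Of these, the smallest standard errors were those of Smc4 (log2 0.01 ± 0.0523), Mki67 (0.12 ± 0.0558), Kif11 (-0.09 ± 0.0828) and Racgap1 (0.03 ± 0.0876).

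Other cell cycle genes were counted from lists that do not contain the 52. These lists, like the 52, were chosen with earlier results of these data known, so their counts are a description and not independent support. Of 59 further mitosis genes, 46 rose in ST2-high and 13 did not pass, with a median log2 of 0.85. Over all genes tested, 15.3% rose and 10.8% fell. Those with the smallest adjusted p were Lmnb1, a lamin of the nuclear envelope, from 138 ± 4.80 to 279 ± 7.01 CPM, the cytokinesis kinase Cit, 2.65-fold, Ncapd2, 1.72-fold, and the kinetochore scaffold Casc5, 2.07-fold. Against ST2-low, 9 of the 59 were higher and 16 lower in ST2KO (median -0.04), where 33% of all genes were higher and 29.3% lower. The share of the 59 called there was under the 62.3% of all genes called in either direction. Kifc1, a spindle kinesin, was 2.41-fold higher at 11.2 ± 0.818 against 4.70 ± 0.607 CPM, above the ST2-high level of 8.45 ± 0.717 CPM, while the centromere gene Cenpl was 2.28-fold, the centriole gene Stil 1.90-fold and Lmnb1 1.79-fold lower (n = 3 each). Against ST2-high, 50 of the 59 were lower and 2 higher, where 32.6% of all genes were lower and 31.9% higher.

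Of 40 S phase genes, 25 rose in ST2-high and 15 did not pass, where 15.3% of all genes rose. Their median log2 of 0.43 stood beside 1.21 for the 52 mitosis genes. Rrm2, a subunit of ribonucleotide reductase, rose 2.28-fold, Uhrf1, which maintains DNA methylation at replication, 1.87-fold, the checkpoint mediator Clspn 1.94-fold and the helicase subunit Mcm5 1.40-fold. Against ST2-low, 3 were higher in ST2KO and 18 lower (median -0.26), where 33% of all genes were higher and 29.3% lower. The smallest adjusted p in that comparison belonged to Cdt1, Dtl, Pcna and Orc1, all lower. Cdt1 went from 99.5 ± 1.41 to 38 ± 1.85 CPM, Dtl from 29.1 ± 1.49 to 8.48 ± 0.292 CPM and Orc1 from 11.4 ± 0.524 to 3.36 ± 0.681 CPM (n = 3 each). Pcna, the sliding clamp, was 1.62-fold lower. The difference between the lists was not tested.

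Regulators of these genes moved less evenly. Of 18 genes of cell cycle entry and the DREAM complex, 10 rose and 1 fell in ST2-high, and 5 were higher and 3 lower in ST2KO than in ST2-low. Over all genes tested, 15.3% rose and 10.8% fell in ST2-high, and 33% were higher and 29.3% lower in ST2KO than in ST2-low. E2f2, an activator of S phase genes, was at 16.7 ± 1.14 CPM in ST2-low, 32.6 ± 2.61 in ST2-high and 34.1 ± 2.395 in ST2KO, and so was high in both of the latter groups. Lin54, the DREAM subunit that binds the CHR, was at 70.0 ± 8.25, 89.6 ± 2.65 and 34.0 ± 0.923 CPM, and Rbl1 (p107), a repressor of E2F targets, at 44.3 ± 2.32, 51.8 ± 2.82 and 86.2 ± 3.51 CPM (n = 3 each). E2f8, a repressor of E2F targets, rose 2.45-fold in ST2-high, and Rbl2 (p130) and E2f3 rose 1.32-fold and 1.55-fold. Of 16 genes of the anaphase-promoting complex, 2 rose in ST2-high, its activator Fzr1 1.30-fold and the subunit Cdc27 1.16-fold. Against ST2-low, 5 of the 16 were higher in ST2KO and 4 lower (median log2 0.06), near the shares over all genes. Cdc27 was 2.05-fold, the ubiquitin-conjugating enzyme gene Ube2s 1.84-fold and Anapc2 1.36-fold lower, and Anapc11 was 1.81-fold higher. Of 10 genes of cohesin and its loaders 7 did not pass and 3 fell in ST2-high by edgeR (Nipbl, Smc3 and Stag2, by 1.19-fold, 1.16-fold and 1.11-fold). Against ST2-low, 1 of the 10 was higher in ST2KO and 5 lower, with Rad21 1.49-fold and Wapal 1.35-fold lower and Pds5b 1.27-fold higher. In none of these lists was the share called between ST2KO and ST2-low above the 62.3% of all genes called in either direction.

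**Figure D4:**
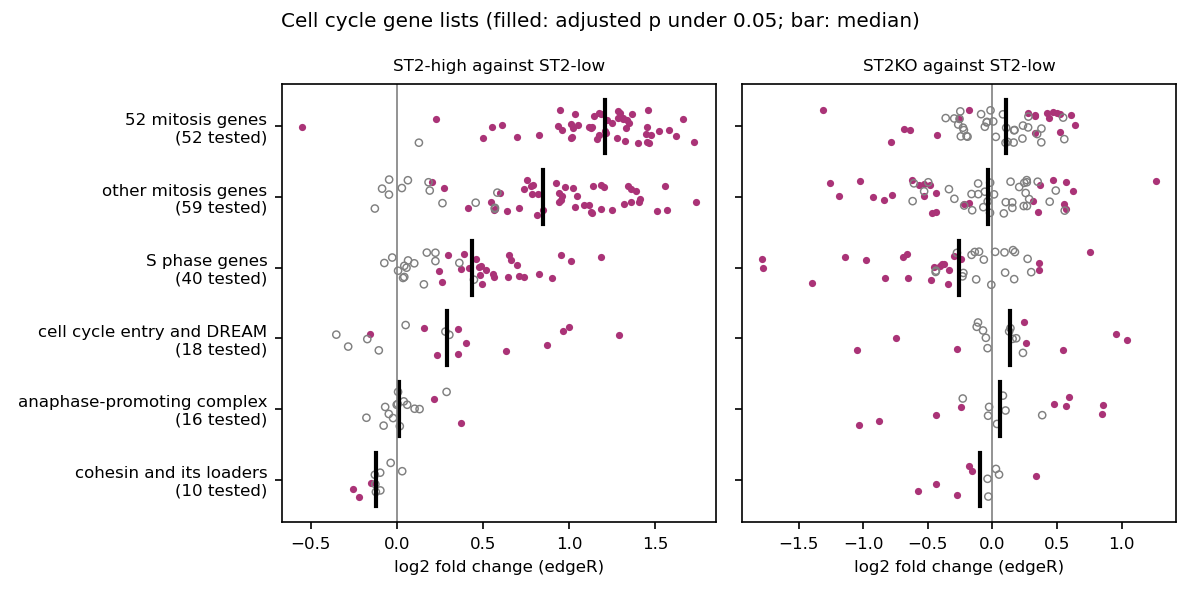
Log2 fold change (edgeR) of every tested gene of 6 cell cycle lists, with filled points for an adjusted p under 0.05 and a bar at the median. In ST2-high against ST2-low the median is 1.21 for the 52 mitosis genes, 0.85 for other mitosis genes, 0.43 for S phase genes and close to 0 for the anaphase-promoting complex and cohesin, and in ST2KO against ST2-low S phase genes have the lowest median, -0.26.

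Markers of other cells were counted beside these results, since cycling cells of any type would add to them. The 10 B cell markers summed to between 120 and 183 CPM in ST2-low, 137 and 173 in ST2-high and 114 and 148 in ST2KO, with a mean of 156.4 and 156.7 CPM in the wild-type groups. Of the 10, 1 rose in ST2-high by edgeR and 9 did not pass, where 15.3% of all genes rose and 10.8% fell. Markers of germinal centre B cells and plasmablasts summed to 430 to 485 CPM in ST2-low, 576 to 624 in ST2-high and 297 to 319 in ST2KO. Of its 9 tested genes 4 rose and 1 fell in ST2-high, and most of the sum came from Irf4, Prdm1, Xbp1 and Igj, of which the first 3 are also known from Tregs. The 12 myeloid markers summed to between 158 and 206 CPM in ST2-low, 149 and 150 in ST2-high and 45.8 and 59.6 in ST2KO. Of these, 1 rose and 4 fell in ST2-high, and 11 of 12 were lower in ST2KO than in ST2-high, where 32.6% of all genes were lower. Erythroid markers summed to 185 to 191, 158 to 178 and 112 to 123 CPM in the 3 groups, most of it the transferrin receptor gene Tfrc. The globin gene Beta-s was between 19.7 and 33.4 CPM in every library, while Hba-a1 was listed at 0 in all 9. Markers of CD8 T and NK cells summed to 38.2 to 39.2, 30.2 to 33.01 and 29.2 to 37.4 CPM. The part of other cells in the levels of the mitosis genes was not tested.

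Some members share their place in the genome with other genes, and the strand setting of the counting is not given, so reads of the members and their neighbours cannot be told apart there. In GENCODE M21 the span of Prc1 overlaps Rccd1 on the other strand by 21810 bases, and the log2 difference of Rccd1 between ST2KO and ST2-low was 0.32. Ncapg overlaps Lcorl by 3366 bases (Lcorl 0.55), Kif20a overlaps Cdc23 by 2327 bases (Cdc23 0.57) and Cdca8 overlaps 9930104L06Rik by 2264 bases (0.92). In ST2-high against ST2-low the same neighbours had log2 differences of -0.29, -0.11, -0.18 and -0.17, while Prc1, Ncapg, Kif20a and Cdca8 all rose. Ccna2, Kif4, Nusap1 and Cdc20 also overlap a tested gene on the other strand, by 863, 832, 172 and 53 bases. These are overlaps of gene spans, introns included, and the reads shared were not measured. Depth was a limit for few genes: 42 of the 52 had at least 50 counts in every library, and Cdc25c and Pbk fell to 11 and 18 counts.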

How the data were processed

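The deposited files hold, per the file headers and values, raw read counts per gene symbol for 1 sample each. The sources used here do not give the authors' aligner, counting tool, genome build, library kit or strand setting. Of 23420 rows, 27 whose symbol had become a calendar date (0.182% to 0.206% of counts) were left out. Counts were fitted with edgeR 4.0.16 (R 4.3.3, limma 3.58.1; TMM factors, filterByExpr with a minimum count of 10 and total of 15, robust glmQLFit on all 9 samples, glmQLFTest, two-sided), with Benjamini-Hochberg adjustment over 12219 genes at 0.05. Levels are CPM from named rows and TMM factors. Groups came from the genotype labels and titles. The members and lists were chosen with earlier results of these data known. Values per sample are given for the 2 members of each role with the highest mean CPM, the 2 highest and 2 lowest signed log2 fold changes that passed in each comparison, and members against the common direction; others were chosen for the complex or promoter described. From each other list up to 4 genes of at least 1 CPM are named, by smallest adjusted p. Promoter letters were searched in RefSeq sequences, and lengths and overlaps come from GENCODE M21. Alternatives were DESeq2 1.42.0 (size factors, Wald test), upper-quartile factors, no filter, limma-voom, a stricter filter (5 CPM in 3 samples), thinning to the shallowest library, leaving out Rn45s (12.1% to 16.9% of counts), the 6 samples compared, the replicate block, each library left out, and a minimum fold of 1.5. Library depths ranged from 11659659 to 43406680 counts, and errors are those between libraries.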

Additional observations from a re-analysis of the deposited data

How the results depend on the processing

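No member changed sign in ST2-high against ST2-low or in ST2KO against ST2-high under the alternatives run. The counts of higher members in ST2-high ran from 48 to 50 and the median from 1.146 to 1.243 with 1 library left out, and the lower members in ST2KO against ST2-high from 50 to 51 with a median from -1.178 to -1.052. The lowest size of both medians came without ST2-high replicate 2. With upper-quartile factors the median of ST2KO against ST2-high was -1.047. A minimum fold of 1.5 left 38 members higher and 0 lower in ST2-high (edgeR's glmTreat, 335 and 12 over all genes). It left 39 lower and 0 higher in ST2KO against ST2-high (1351 and 1027 over all genes).

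ST2KO against ST2-low depended on the setting. The median was 0.173 with upper-quartile factors, -0.001 with a filter of 5 CPM and -0.005 after thinning, and ranged from 0.009 (without ST2-low replicate 2) to 0.11 with 1 library left out. The minimum fold left 0 higher and 1 lower (1025 and 1086 over all genes). Over single libraries left out, 8 to 14 were higher and 7 to 9 lower. Calls gained as lower were Bub1b in 7 alternatives, Kif4 in 8, Cdca5 in 1 and Stmn1 in 1, and as higher Mki67 and Plk1 in 2 each and Ttk, Pbk, Spc25 and Cdca8 in 1 each. Signs turned only for members that had not passed. Smc4 was at -0.03 with DESeq2's size factors, the 6 samples compared and the Wald test, -0.01 with the 5 CPM filter and -0.012 after thinning. Racgap1 was at -0.011, -0.012, -0.013 and -0.081 with size factors, 6 samples, the Wald test and thinning. After thinning, Nuf2 was at -0.026 and Spc25 at -0.163. With upper-quartile factors Ccna2 was at 0.027, Aurka at 0.025, Kif15 at 0.010 and Nusap1 at 0.054, and with limma-voom Aurka was at 0.000 and Nusap1 at 0.032. With 1 library left out, members whose sign turned ranged from -0.025 to 0.045 (Smc4), -0.044 to 0.095 (Racgap1), -0.177 to 0.13 (Nusap1), -0.226 to 0.078 (Aurka), -0.129 to 0.00 (Ccna2), -0.035 to 0.382 (Cdca8), -0.056 to 0.225 (Nuf2) and -0.043 to 0.335 (Ube2c). The cause was not tested.

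With the replicate number as a block, 50 members were higher and 1 lower in ST2-high, 12 and 7 in ST2KO against ST2-low, and 51 lower and 1 higher in ST2KO against ST2-high, as without it. Deviations of same-numbered libraries correlated between -0.063 and 0.098, so the numbers were not taken to pair the samples.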
